A study of Danio rerio with 4 samples.

Results

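The stretch of zebrafish chromosome 23 from 15 to 35 Mb holds asxl1, the gene mutated in this study, and 517 of the 32520 genes counted fall in it. A gene was taken as a member when the smallest start of its exons lay in that window of the GRCz11 genome, and ca6 was left out. The window was drawn after the asxl1-/- and asxl1+/+ libraries had been compared, from where the genes called between them lie, so every difference between the genotypes below is a description and carries no test. Chromosome 23 has 1102 genes in the count table. Of the 517 members, 354 passed a filter on low counts and 163 did not.

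RNA was sequenced from 4 libraries of zebrafish tails at 3 days postfertilization (dpf), 2 from asxl1+/+ and 2 from asxl1-/- embryos of heterozygous intercrosses on an AB background, with about 20 tails pooled in each library. No treatment was applied. The mutants were made by CRISPR/Cas9 and carry short frameshift deletions late in the gene, which are predicted to shorten the protein at its C-terminal end. The study describes 2 such lines and presents the one with the longer deletion unless it says otherwise, and the labels of the libraries name no line. The letters A and B in the labels number the libraries of each genotype, without saying what libraries of a letter share, so the spread between them may be technical.

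Asxl1 is a chromatin protein that works with the deubiquitinase Bap1 on ubiquitinated histone H2A, and truncating mutations of human ASXL1 are frequent in myeloid malignancies. Neighbouring genes on a chromosome tend to be inherited together, the more so the closer they lie. Embryos sorted by their asxl1 genotype are therefore also sorted, in part, for the alleles of the genes around it. In this design the effects of the mutation and of alleles inherited with it cannot be told apart.

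The oligonucleotides that define the genotype are shown because they mark the one designed difference in the window. They come from the supplementary table of the study and are written 5′ to 3′. Capitals mark the last 3 bases of the target, where a Cas9 target usually ends in NGG; neither this end nor that of the reverse complement reads NGG, so the orientation of the target was not settled.
asxl1 CRISPR/Cas9 target: gggtgtggatgtcatcaggaCAT
asxl1 genotyping forward primer: tgaaccatctccctcttctgtg
asxl1 genotyping reverse primer: gtctgagccatgctggataact

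For asxl1+/+ the total count was 22963847 (library A) and 26281738 (library B), and for asxl1-/- 19423797 (A) and 20027260 (B). Members took between 2.11% and 2.17% of the counts of each library. Values are given as counts or as CPM, the count relative to the TMM-scaled total of its library, and as the log2 CPM ratio, which is the mean log2 CPM of asxl1-/- minus that of asxl1+/+ with a prior count of 2. The prior count pulls the ratios of low genes towards 0. Markers of skin (summed CPM 29492 to 32478), fast muscle (66730 to 69839, 2 of 4 markers matched by symbol) and notochord (356 to 400.3, 2 of 3 matched) were found in every library labelled as tail. The genes listed as brain markers, elavl3, gfap and neurod1, came to 852 to 975 CPM, of which gfap alone took 714 to 825 CPM. Whether they came from brain or from other neural tissue was not tested. The 2 matched markers of lens and eye came to at most 0.151 CPM.

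The summed markers of 4 cell types did not overlap between the genotypes, all lower in asxl1-/-. The sums for notochord, red cells, brain, and lens and eye overlapped, and neither of the 2 macrophage markers was matched by symbol. Of all single genes tested, 30.1% did not overlap. Those of skin came to 31043.5 and 32478 CPM in asxl1+/+ and 29492 and 30611 CPM in asxl1-/-. Of them krt5 and krt17 were lower, krt4 overlapped, and cldni was higher, at 422 and 438 against 444 and 457 CPM. Fast muscle markers came to 69716.5 and 69839 against 66730 and 67707 CPM. Of these actc1b was lower, and myhz2 overlapped at 13231 and 13711 against 12852 and 15436 CPM. The 3 pancreas markers prss1, ctrb1 and cela1.6 summed to 4.64 and 16.2 CPM in asxl1+/+ and to 0.662 and 0.252 CPM in asxl1-/-, with ctrb1 at 0 in both asxl1-/- libraries. The 3 neutrophil markers lyz, mpx and npsn summed to 68.9 and 80.0 CPM in asxl1+/+ and to 60.6 and 50.7 CPM in asxl1-/-. Red cell markers overlapped, at 791 to 936 CPM in asxl1+/+ and 892 to 957 CPM in asxl1-/-. The part of these cells in the ratios of members was not tested. In pools of whole tails fewer cells of a type and less RNA per cell cannot be told apart. Whether the pools held tissue from outside the tail was not tested either, so the pancreas values are not read as a loss in the tail.

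The mutated gene itself was counted in every library. asxl1 (ENSDARG00000036956, chromosome 23, 30730121 to 30752553, plus strand) had 1508 and 1698 counts in asxl1+/+ and 1123 and 1145 in asxl1-/-. This was 65.4 and 65.3 CPM in asxl1+/+ and 57.2 and 57.6 CPM in asxl1-/-, so both asxl1-/- libraries were lower, with a log2 CPM ratio of -0.19. A count over the whole gene cannot show a deletion of a few bases in 1 exon, so it does not check the labels.

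Members differed more between the genotypes than genes elsewhere, in both directions. Of the 354 members that passed the filter, 53 (15%) had an absolute log2 CPM ratio of at least 0.5, with 25 higher and 28 lower in asxl1-/-, against 3.9% of all 19970 genes tested (1.8% higher and 2.1% lower). An absolute ratio of at least 1 was found in 18 members (5.08%), 9 higher and 9 lower, against 0.411% of all genes tested. On the rest of chromosome 23, 23 of 415 genes (5.54%) reached 0.5 and 1 (0.241%) reached 1. On the other 24 chromosomes the share that reached 0.5 lay between 2.33% and 6.26%, and the share that reached 1 between 0% and 0.659%.

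The median absolute ratio was 0.158 in the window, 0.110 on the rest of chromosome 23, and between 0.0812 and 0.116 on the other chromosomes. The signed median was -0.00, and 176 members (49.7%) were higher in asxl1-/-, so the window as a whole was neither raised nor lowered. These values rest on members that passed the filter, and a member can pass because it is high in 1 genotype. The 163 members that did not pass had between 0 and 49 counts over the 4 libraries, with a median of 1, and 64 of them had none. They include all 36 members named 5S_rRNA.

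**Figure D1:**
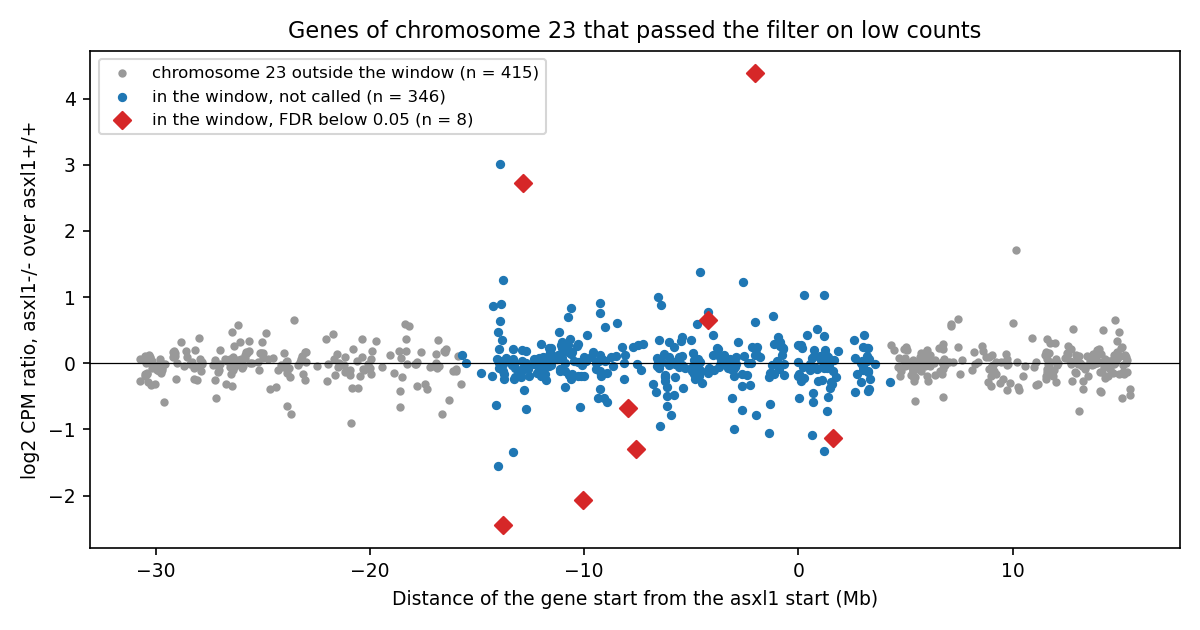
Log2 CPM ratio of asxl1-/- over asxl1+/+ (y axis) against the distance of the gene start from the asxl1 start in Mb (x axis), for the 769 genes of chromosome 23 that passed the filter. Grey points are the 415 genes outside the window, blue points the 346 members that were not called and red diamonds the 8 members with an FDR below 0.05; the points of the window spread further from 0 in both directions.

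The spread between libraries of a genotype was smaller than the difference between genotypes for many members. In 180 of the 354 (50.8%) the CPM values of the genotypes did not overlap, 93 higher and 87 lower in asxl1-/-, against 30.1% of all genes tested (15.4% higher and 14.6% lower). The share was 37.1% on the rest of chromosome 23 and 27.1% to 33.6% on the other chromosomes. When the ratio was taken once from the A libraries and once from the B libraries, Pearson's r across members was 0.82 and Spearman's rank correlation 0.58. Across the 415 genes of the rest of chromosome 23 they were 0.21 and 0.19, and on the other chromosomes Pearson's r lay between -0.06 and 0.45. These correlations are across genes that share the same 4 libraries, and genes are not independent replicates. The 2 ratios had the same sign in 240 members (67.8%), in 58.6% of the genes of the rest of the chromosome and in 49.6% to 58.5% on the others.

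**Figure D2:**
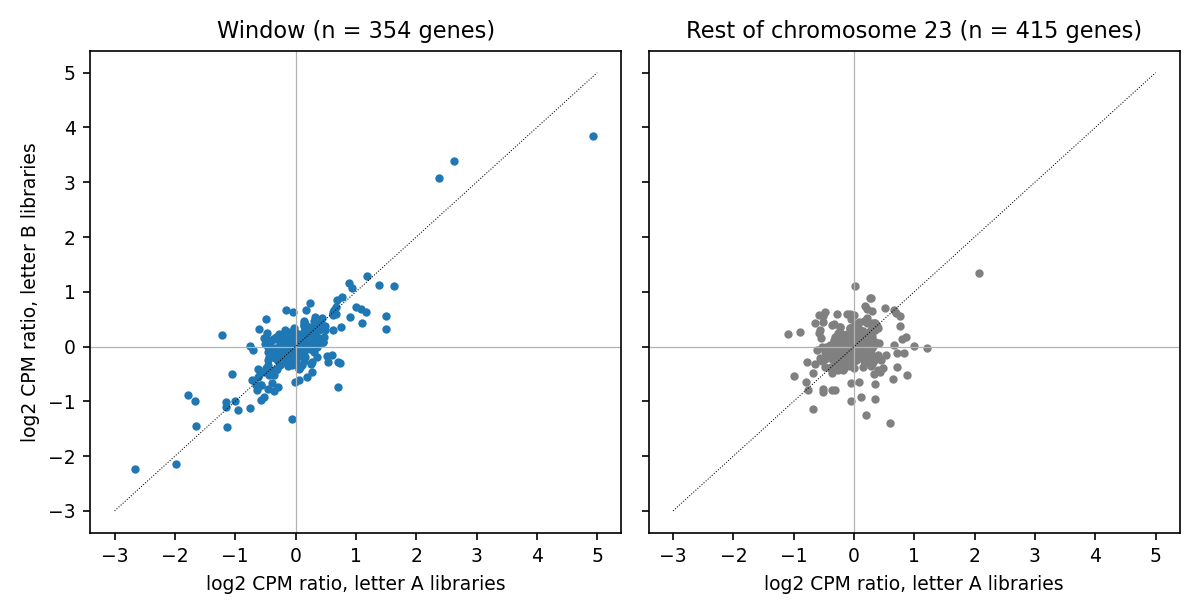
Log2 CPM ratio (asxl1-/- over asxl1+/+) from the B libraries (y axis) against that from the A libraries (x axis), for the 354 members (left) and the 415 genes of the rest of chromosome 23 (right); each point is a gene and the dotted line marks equality. Pearson's r is 0.82 in members and 0.21 in the other genes, and Spearman's rank correlation 0.58 and 0.19.

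Size varied along the window without a steady change with distance from asxl1. In bins of 2.5 Mb, the 8 bins of the window held 26 to 58 members each, with median absolute ratios of 0.109 to 0.210, and the 11 bins outside it had medians of 0.0715 to 0.168. The highest median, 0.210, was in the bin from 22.5 to 25 Mb, and the bin from 30 to 32.5 Mb, which holds asxl1, had 0.199. The largest share of members past 0.5 was at the far end, in the bin from 15 to 17.5 Mb, with 9 of 33 (27.3%). That bin holds the tandem group of 10 F-box genes described below, of which 5 were past 0.5. The split of reads between these copies is uncertain. The last bin, from 32.5 to 35 Mb, held 26 members and none past 0.5.

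The edges of the window did not mark an even change. Pearson's r between the ratios of the letters lay between 0.62 and 0.93 in the bins of the window. In the bins just below it, which start at 7.5, 10 and 12.5 Mb, r was 0.69, 0.34 and 0.50, and in the bin just above it, which starts at 35 Mb, it was -0.10. Further up, the bins that start at 37.5 and 40 Mb had r of 0.07 and 0.60. Spearman's rank correlation lay between 0.26 and 0.74 in the bins of the window. In the bins that start at 7.5, 10 and 12.5 Mb it was 0.49, 0.58 and 0.52. In those that start at 35, 37.5 and 40 Mb it was -0.02, 0.06 and 0.33. By rank, the bins of the window thus did not stand apart from those just below it. Just inside the lower edge, arhgap46b, named as a GTPase-activating protein, had 12.2 and 10.5 CPM in asxl1+/+ and 12.8 and 11.8 CPM in asxl1-/- (ratio 0.12). Just outside it, phf20b had 21.5 and 33.5 CPM in asxl1+/+ and 17.5 and 26.5 CPM in asxl1-/- (ratio -0.32), and both genes overlapped between the genotypes. At the upper edge CHST13, a sulfotransferase of chondroitin, had 5.46 and 5.31 CPM in asxl1+/+ and 4.43 and 4.38 CPM in asxl1-/- (ratio -0.28). The next gene outside, the transporter slc41a3, had 116 and 118 CPM in asxl1+/+ and 139 and 144 CPM in asxl1-/- (ratio 0.27), and neither overlapped.

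**Figure D3:**
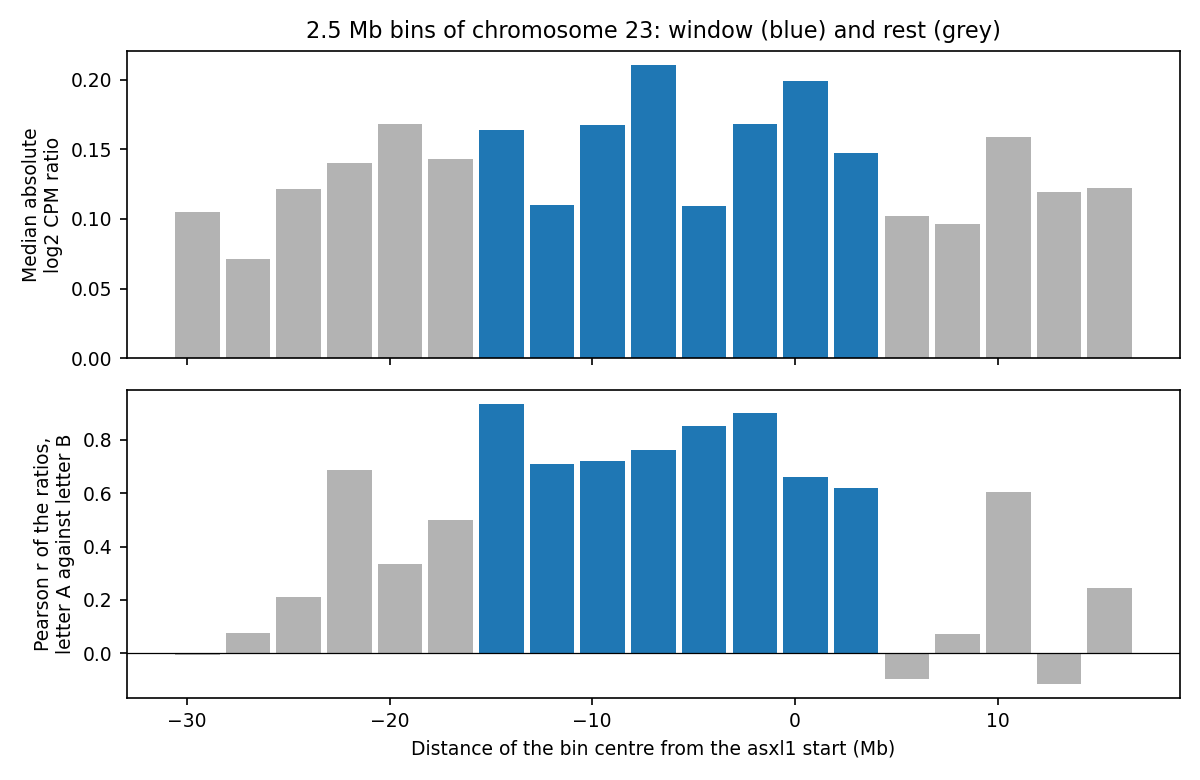
Median absolute log2 CPM ratio (upper panel) and Pearson's r between the ratios from the A and from the B libraries (lower panel) in 2.5 Mb bins of chromosome 23, against the distance of the bin centre from the asxl1 start in Mb. Blue bars are the 8 bins of the window and grey bars the 11 others. In the lower panel every blue bar reaches at least 0.62, and 1 grey bar (0.69) passes that level. Spearman's rank correlation, not shown, was 0.26 in the blue bin from 17.5 to 20 Mb. It was 0.49, 0.58 and 0.52 in the grey bins that start at 7.5, 10 and 12.5 Mb.

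Neighbouring members did not share their direction more often than genes elsewhere. Of 353 pairs of neighbours in the order of start positions, 180 (51.0%) had ratios of the same sign, compared with 50.5% on the rest of the chromosome and 48.4% to 54.2% on the others. The longest runs of a single sign held 8 members, and 13 runs held at least 5. On the rest of chromosome 23, with 415 genes, the longest run held 11 genes and 17 runs held at least 5. On the other chromosomes, which have more genes, the longest run held 8 to 19. Among large ratios, direction was mixed: 9 pairs of neighbours among the 53 members past 0.5 lay next to each other, 4 of the same and 5 of opposite sign. Of the 106 neighbours of these members, counted on each side, 50 had the sign of the large member, and the median of their ratios in its direction was -0.01.

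Both runs of 8 members had mostly small ratios. For the counts without overlap given below, the shares were 50.8% over all members and 30.1% over all genes tested. The raised run, from 19198244 to 19583814, held ccdc115, si:dkey-109j17.5, APOBEC2, OARD1, tasorb, ASB14, DNAH12 and atp6ap1lb, with ratios from 0.06 to 0.47. In 2 of the 8 the genotypes did not overlap: ccdc115, an assembly factor of the vacuolar proton pump in human cells, at 3.38 and 3.42 CPM in asxl1+/+ and 3.61 and 3.63 CPM in asxl1-/-, and atp6ap1lb, named for an accessory subunit of that pump, at 4.81 and 4.77 against 6.52 and 6.85 CPM. The lowered run, from 24485657 to 24682244, held nckap5l, ATP13A2 and mlh3 among others, with ratios from -0.64 to -0.03, and 5 of the 8 did not overlap. Its lowest ratio was that of nckap5l, whose human counterpart binds microtubules, at 27.9 and 28.2 CPM in asxl1+/+ and 18.7 and 17.3 CPM in asxl1-/-. ATP13A2, a lysosomal transport ATPase, was at 10.3 and 8.11 against 7.89 and 7.30 CPM, and mlh3, of DNA mismatch repair, at 3.99 and 4.04 against 3.21 and 3.02 CPM.

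The largest ratios were those of weakly expressed members, and members exceeded other genes at each level. When all genes tested were split into 3 equal classes at 4.44 and 16.8 CPM, the median absolute ratio of members was 0.256 in the lowest class (113 members), 0.178 in the middle (104) and 0.0985 in the highest (137). For genes of the other chromosomes it was 0.182, 0.0924 and 0.0533. On the rest of chromosome 23 it lay between those values and the members, at 0.212, 0.0998 and 0.0750. The share of members past 0.5 was 31.9%, 11.5% and 3.65%, against 10.3%, 0.50% and 0.172% on the other chromosomes and 14.9%, 1.32% and 0% on the rest of chromosome 23. Pearson's r between the letters was 0.81, 0.85 and 0.79 in the 3 classes of members.

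Across all genes, edgeR's quasi-likelihood test on genotype called 12 of 19970 (0.0601%) at an FDR under 0.05, with 0.0351% raised and 0.025% lowered in asxl1-/-. Of these calls 8 are members (2.26% of the 354), 3 higher and 5 lower, and none lies on the rest of chromosome 23 without ca6. Other settings did call genes there. With all 4 libraries these were 1 with edgeR's exact test and 1 without a filter beyond 1 count. With the letters as a block they were 12 of 301 calls (closing section). Some of the fits without 1 library called genes there as well. Since the window was drawn from calls between the genotypes, nothing is read from the number of members called. edgeR's exact test called 21 members against 0.265% of all genes tested, and DESeq2 12 members against 0.135%. With the quasi-likelihood test and at least 10 counts in every library 5 members were called, 1 higher and 4 lower, of 9 calls among 19123 genes. Leaving out a library shifted the number of calls over all genes as well as in the window (closing section). At an unadjusted p below 0.05 in the quasi-likelihood test there were 90 members (25.4%), against 3.08% of all genes tested. The window was drawn from this contrast, so a higher share in it follows in part from that choice and is not a test. The 8 called members are spread from 16948049 to 32352179 on the chromosome, and they are described with the other extreme members below.

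Of the 164 members with no overlap between genotypes, a mean of at least 1 CPM and a pass of the filter, the 10 with the highest and the 10 with the lowest ratio are named. They are genes with known roles, genes known only by clone names, and F-box genes of a tandem group. Symbols are spelled as in the name table used, which gives many zebrafish genes in the capitals of their human counterparts. None of the 20 ratios changed sign under another scaling or with another prior count. In either letter alone or without any library they could not, since they were picked for no overlap between the genotypes.

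smc1a (ENSDARG00000055754, 28693278 to 28713982, plus strand) encodes a core subunit of cohesin, the ring that holds sister chromatids together. It had 4 and 10 counts in asxl1+/+ and 156 and 133 in asxl1-/-, or 0.173 and 0.385 CPM against 7.94 and 6.70 CPM. The asxl1+/+ libraries were close to no counts, and the gene passed the filter through asxl1-/- alone. Its log2 CPM ratio of 4.38 is therefore given as a description that moves with the prior count, to 4.69 at 0.5 and 3.93 at 5. Its 2 neighbours were higher as well, by less: RIBC1 with a ratio of 0.63 at 0.564 and 0.615 CPM against 0.916 and 1.01 CPM, and SRM, spermidine synthase, with a ratio of 0.12 at 39.6 and 41.9 against 42.4 and 46.5 CPM.

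NMNAT1, a nuclear enzyme of NAD+ synthesis, was at 1.0 and 1.5 CPM in asxl1+/+ and 1.93 and 2.22 CPM in asxl1-/- (ratio 0.72), and its exons overlap another gene; without strand, pairs in the shared part were counted for neither. b4galt3, a galactosyltransferase of the Golgi, was at 3.90 and 4.04 CPM in asxl1+/+ and 6.26 and 6.70 CPM in asxl1-/- (ratio 0.69). In both genes the asxl1-/- libraries were the higher ones.

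Most of the other raised members have clone names only. si:ch73-390p7.2 (ENSDARG00000097489, 17878969 to 17881328) had 10 and 6 counts in asxl1+/+ and 52 and 52 in asxl1-/-, a ratio of 2.73 (2.97 and 2.38 with prior counts of 0.5 and 5), and it too passed through asxl1-/- alone. si:dkey-205h13.2 (ENSDARG00000089429, 26523998 to 26536055) was the most expressed of the 10, at 54.5 and 54.3 CPM in asxl1+/+ and 85.1 and 86.4 CPM in asxl1-/- (ratio 0.66). Both are among the called members, at opposite ends of the range of level. The remaining genes, si:dkey-126g1.9, si:ch211-197l9.2 and si:ch73-206d17.1, had ratios of 1.03, 1.03 and 0.78 and CPM values between 1.15 and 7.85.

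Among the lowered members, arhgef3l is named for Arhgef3, a guanine nucleotide exchange factor of small GTPases. It (ENSDARG00000037554, 20669149 to 20684086, plus strand) had 14.6 and 14.2 CPM in asxl1+/+ and 3.61 and 3.12 CPM in asxl1-/-, so the asxl1+/+ mean was 4.28 times the asxl1-/- mean (ratio -2.07). noc2l (ENSDARG00000001754, 23126130 to 23179417, minus strand), which encodes a nucleolar protein, had 19.6 and 27.2 CPM in asxl1+/+ and 8.86 and 9.82 CPM in asxl1-/- (ratio -1.30). The asxl1+/+ libraries of noc2l were the less even. That both lay above the asxl1-/- libraries was fixed by the choice for no overlap. slc39a5 (ENSDARG00000079525, 32335871 to 32352179, plus strand), a zinc transporter, had 10.2 and 9.88 CPM in asxl1+/+ and 4.53 and 4.58 CPM in asxl1-/- (ratio -1.12). The 3 genes are all called, on both sides of asxl1.

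The other named members of the lowered side were weaker. lca5, the gene of the ciliary protein lebercilin, whose human form is mutated in an inherited blindness, had 2.60 and 2.85 CPM in asxl1+/+ and 1.12 and 1.36 CPM in asxl1-/- (ratio -1.09). hspb7, a small heat shock protein of heart and muscle, had 4.03 and 3.50 against 2.34 and 1.56 CPM (ratio -0.94). masp2, a protease that starts the lectin pathway of complement, had 13.4 and 14.9 against 8.96 and 7.50 CPM (ratio -0.78). In these 3 genes, as in syt6a, a synaptotagmin with 4.2 and 3.69 against 1.99 and 2.57 CPM (ratio -0.78), the asxl1-/- libraries were the lower ones.

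si:ch211-224l10.5 (16696410 to 16709231) had 1.95 and 1.54 CPM in asxl1+/+ and 0.560 and 0.503 CPM in asxl1-/- (ratio -1.55). The gene without a name, ENSDARG00000115264 (17417539 to 17447163), had 5.68 and 4.54 CPM against 1.58 and 2.42 CPM (ratio -1.34), over exons of 159 bases in all that overlap those of another gene. rerea, an atrophin-family corepressor outside the 10 lowest and named here because it was called, had 50.2 and 53.2 CPM in asxl1+/+ and 31.8 and 32.8 CPM in asxl1-/- (ratio -0.68).

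**Figure D4:**
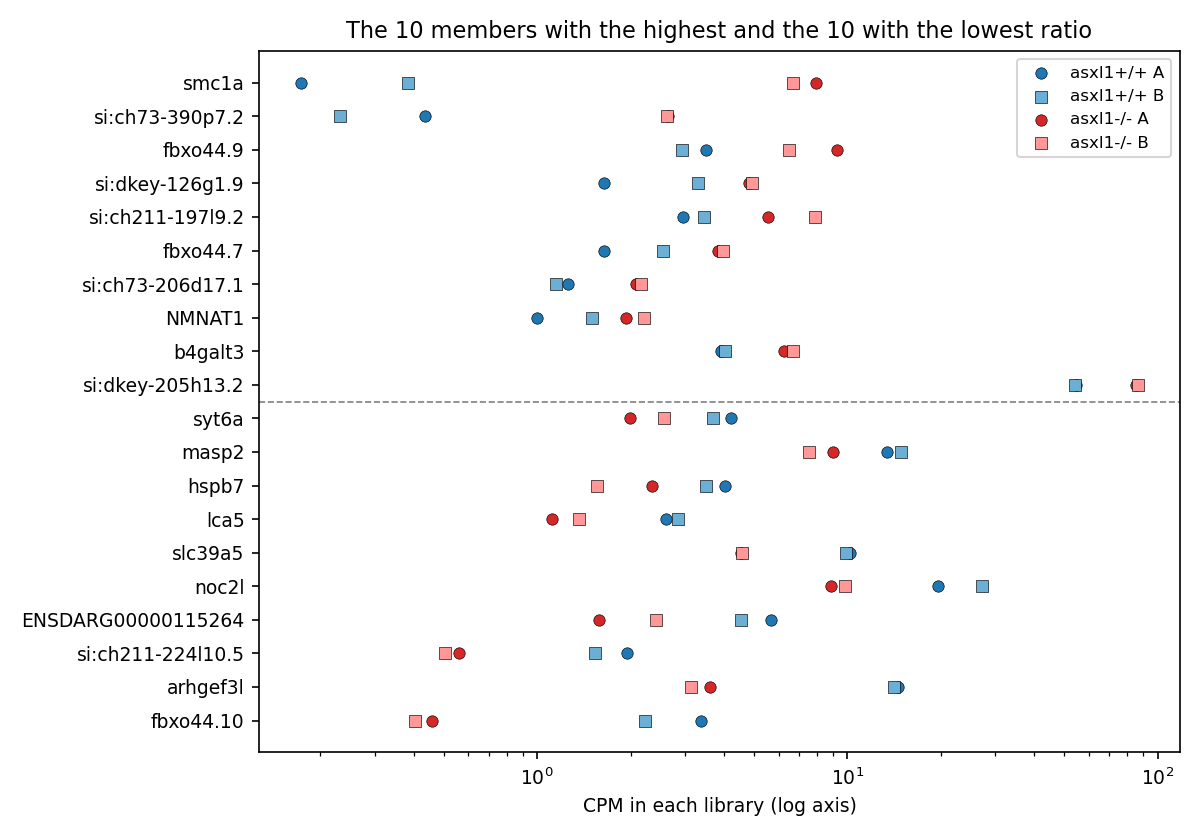
CPM in each of the 4 libraries (x axis, log scale) for the 10 members with the highest and the 10 with the lowest log2 CPM ratio among those without overlap (y axis, separated by the dashed line). Blue symbols are asxl1+/+ and red symbols asxl1-/-, circles library A and squares library B; in each row the 2 blue symbols lie on 1 side of the 2 red symbols.

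Some members with larger ratios fell outside the rule because of their low level, and others past 0.5 had known roles; they were picked after their values were seen. IHH, the Indian hedgehog ligand, had 28 and 18 counts in asxl1+/+ and 11 and 6 in asxl1-/- (ratio -1.0), and sst6, a somatostatin, 34 and 29 against 14 and 9 (ratio -1.06). At higher level, pgd, an enzyme of the pentose phosphate pathway, had 43.0 and 52.1 CPM in asxl1+/+ and 31.4 and 30.4 CPM in asxl1-/- (ratio -0.61). adnpb, a homeobox gene, had 22.5 and 24.3 against 13.6 and 16.0 CPM (ratio -0.67). The raised rap1gap, which switches off the GTPase Rap1, had 9.54 and 10.5 against 14.7 and 16.0 CPM (ratio 0.61). None of these genes overlapped between the genotypes, as was so for 50.8% of members and 30.1% of all genes tested. Most of them are lowered, whereas of all members past 0.5, 25 were higher and 28 lower.

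A tandem group of 10 F-box genes of the fbxo6 and fbxo44 families, on the plus strand from 16748806 to 16953236, held members of both extremes. F-box proteins choose the substrates of SCF ubiquitin ligases, and mammalian Fbxo6 binds glycoproteins. The group was picked after its values were seen. Of its 10 genes 7 had a higher and 3 a lower ratio, or 8 and 2 when libraries were scaled by their totals alone, and 6 did not overlap between genotypes, 5 higher and 1 lower, where the shares over all genes tested are 15.4% and 14.6%. Near-identical copies can share reads, and pairs of reads that mapped to several places were not assigned by the authors' counting, so the split between the copies is uncertain.

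The last 2 genes of the group went in opposite directions. fbxo44.9 (16928506 to 16945441) had 81 and 76 counts in asxl1+/+ and 182 and 129 in asxl1-/- (ratio 1.25), whereas fbxo44.10 (16948049 to 16953236) had 78 and 58 counts against 9 and 8 (ratio -2.45, the lowest of the rule). The ratio of fbxo44.10 was -2.61 and -2.18 with prior counts of 0.5 and 5, and the gene passed the filter through asxl1+/+ alone. Upstream of them fbxo44.7 had 1.65 and 2.54 CPM in asxl1+/+ and 3.82 and 3.98 CPM in asxl1-/- (ratio 0.90), and fbxo44.5 had 9.28 and 8.54 against 14.8 and 12.9 CPM (ratio 0.63). fbxo6.2 had 3 and 0 counts in asxl1+/+ and 25 and 17 in asxl1-/-, for which no fold is given, as a member that passed the filter through asxl1-/- alone. fbxo44.1, fbxo6.1, fbxo44.3 and fbxo6.3 overlapped between the genotypes, with ratios between -0.07 and 0.22. The 10 genes together had 989 and 1050 counts in asxl1+/+ against 1173 and 1041 in asxl1-/-, or 42.9 and 40.4 CPM against 59.7 and 52.4 CPM, a log2 ratio of 0.43.

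**Figure D5:**
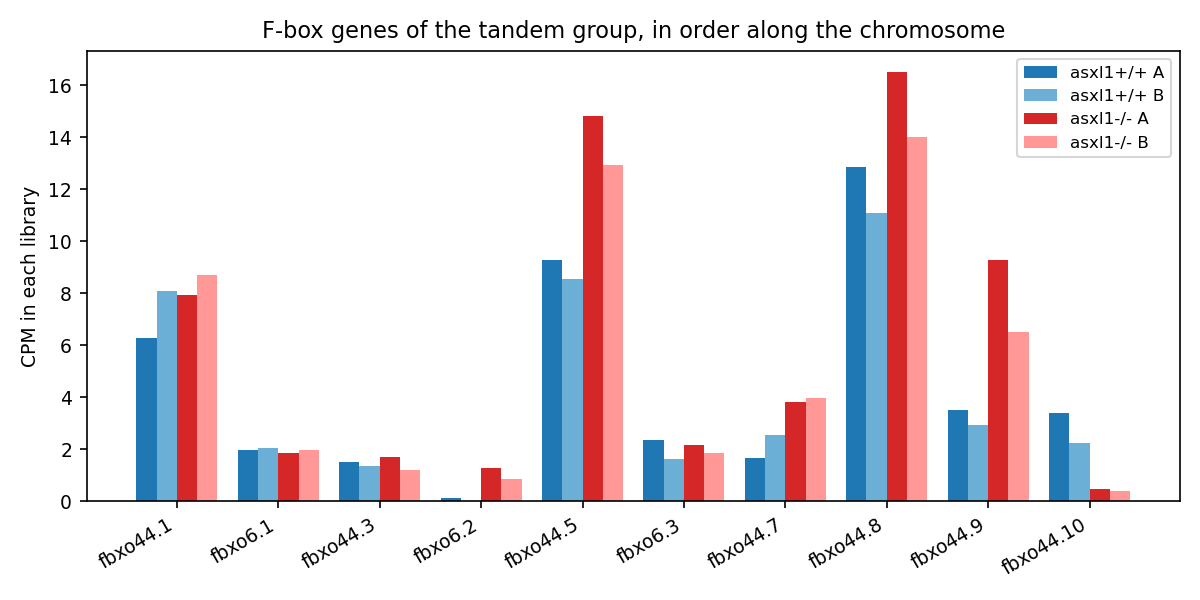
CPM in each library (y axis) of the 10 F-box genes of the tandem group, in their order along the chromosome (x axis), with asxl1+/+ libraries in blue and asxl1-/- libraries in red. Red bars are the taller ones for fbxo6.2, fbxo44.5, fbxo44.7, fbxo44.8 and fbxo44.9, and blue bars for fbxo44.10.

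The 3 genes on either side of asxl1 had ratios between -0.52 and 0.28. On its lower side, CAMTA1, a calmodulin-binding transcription activator, had 30.3 and 24.7 CPM in asxl1+/+ and 24.1 and 24.2 CPM in asxl1-/- (ratio -0.18). DNAJC11, a chaperone of mitochondria, overlapped at 47.9 and 51.7 against 50.7 and 50.1 CPM (ratio 0.02), and thap3, a zinc finger gene, had 1.86 and 1.88 against 2.60 and 2.01 CPM (ratio 0.28). On its upper side PCMTD2 had 4.33 and 4.69 CPM in asxl1+/+ and 3.51 and 2.77 CPM in asxl1-/- (ratio -0.52), and it is the 1 of the 6 neighbours past 0.5. MYT1, a zinc finger factor of neural cells, had 29.9 and 27.1 against 25.7 and 25.0 CPM (ratio -0.17). NPBWR2, named for a receptor of neuropeptides, overlapped at 1.17 and 1.65 against 1.22 and 1.06 CPM (ratio -0.27).

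Members with the highest level per length were muscle and ribosomal genes with small ratios. TNNC2, troponin C of fast muscle, was the highest at 5358 CPM per kb, with 7962 and 8361 CPM in asxl1+/+ and 8165 and 8325 CPM in asxl1-/- (ratio 0.02). The clone-named si:dkey-151g10.6, at 2159 CPM per kb, also overlapped (ratio -0.03). RPS12 and RPL10, of the small and the large ribosomal subunit, had 958 and 454 CPM per kb and ratios of 0.11 and 0.08. tnnc1b, a troponin C gene, had 419.8 CPM per kb, with 337 and 356 CPM in asxl1+/+ and 385 and 389 CPM in asxl1-/- (ratio 0.16). In RPS12, RPL10 and tnnc1b both asxl1-/- libraries were above both asxl1+/+ libraries, as in 93 of the 354 members and 15.4% of all genes tested.

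Members were also grouped by the start of their symbols alone, so other members of the same function can lie outside a group. For chromatin regulators the starts were asxl, bap, rere, hdac, dnmt, kdm and kmt. The 6 such members that passed, asxl1 itself among them, were all lower in asxl1-/-. Of these 4 did not overlap, where 87 of the 354 members and 14.6% of all genes tested did so as lower genes. They were rerea and asxl1, given above, and the DNA methyltransferases dnmt3bb.3 and dnmt3bb.2. dnmt3bb.3 was at 3.90 and 3.58 CPM in asxl1+/+ and 3.31 and 3.57 CPM in asxl1-/-, barely apart, and dnmt3bb.2 at 9.06 and 8.65 against 7.69 and 7.30 CPM. Exons of both methyltransferases overlap another gene. DNMT3B and the histone methyltransferase KMT2D overlapped between the genotypes, with ratios of -0.16 and -0.05. The 6 ratios had a median of -0.18, and 3 of the genes are next to each other. Chromatin genes with other symbol starts were not counted, so the direction is that of these 6 only.

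Of 9 solute carriers 8 passed, 2 higher and 6 lower, with ratios from -1.12 (slc39a5) to 0.32 (slc25a33, a mitochondrial nucleotide carrier), and 3 did not overlap, all lower, against 30.1% of all genes tested and 50.8% of members. The 3 cytosolic ribosomal protein genes were higher, by 0.03 to 0.11, and RPS26 overlapped. Of 7 genes in the Hes, Her and Pax families of transcription factors 5 were higher and 2 lower. her4.1, a target of Notch signalling, had 12 and 15 counts in asxl1+/+ and 24 and 16 in asxl1-/- (ratio 0.76), and its near copies her4.2, her4.4 and her4.5 overlapped with ratios of 0.06, -0.38 and 0.12. pax7b, a gene of muscle progenitors, had 12.1 and 10.2 CPM in asxl1+/+ and 16.9 and 13.2 CPM in asxl1-/- (ratio 0.43). The 4 passing genes with symbols that start with ube, usp, ubr or uba had ratios from -0.17 to -0.00.

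The letters gave a contrast of the same libraries that the choice of the window did not use. Between the B and the A libraries, edgeR's quasi-likelihood test called 4 of 354 members (1.13%), 2 higher and 2 lower in B, against 2.79% of all genes tested (1.42% higher and 1.38% lower). This fit had no term for genotype, so differences between the genotypes counted as spread within a letter. With genotype as a covariate 29 members (8.19%) were called, against 8.53% of all genes tested. The median absolute log2 ratio of B over A was 0.120 in members and 0.125 in all genes tested. The letters did not overlap in 110 members (31.1%), against 46.1% of all genes tested; a gene whose genotypes do not overlap cannot have letters that do not overlap, so this share is tied to that of the genotypes.

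NR4A1, an immediate early nuclear receptor, fell from 66.3 and 65.5 CPM in the A libraries (asxl1+/+, then asxl1-/-) to 48.5 and 46.7 CPM in the B libraries, with a log2 fold change of -0.47 and an FDR of 0.000539 in edgeR's quasi-likelihood test. POU6F1, a POU homeodomain factor, rose from 11.4 and 10.3 to 15.8 and 18.2 CPM (0.64, FDR 0.00425). HUWE1, a ubiquitin ligase, fell from 175 and 171 to 145 and 147 CPM (-0.24, FDR 0.0200). RND1, a small GTPase (ENSDARG00000030547, 17800717 to 17815253), rose from 9.88 and 7.69 to 13.4 and 12.8 CPM (0.57, FDR 0.0245). Its exons overlap another gene. In all 4 genes the genotypes overlapped, and their log2 CPM ratios between genotypes lay between -0.21 and 0.03. Another member with the symbol RND1, between 26946429 and 27006062, was not called by letter and had a ratio between genotypes of at least 0.22.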

How the data were processed

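Each of the 4 libraries is a pool of about 20 tails at 3 dpf, and its label gave its genotype and letter. Read pairs were mapped by the authors to GRCz11 with STAR. They counted pairs on Ensembl 96 exons with featureCounts 1.6.4, ignoring strand, and deposited raw counts per gene, with exon positions and exonic length, and no normalization. The labels describe total RNA and the study's methods poly-A selection. The chi-square per degree of freedom between libraries of a genotype was 6.50 and 4.82, so each library was used as 1 replicate. The small number of libraries limits the precision, as do the counts of low members.

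The window, members and gene lists were chosen with earlier results of these data known. edgeR 4.0.16 in R 4.3.3 filtered the genes (filterByExpr), scaled them by TMM and tested them with the quasi-likelihood test on genotype, and separately on letter, with Benjamini-Hochberg adjustment over the 19970 genes tested. The study's methods name edgeR's exact test, which was run as an alternative beside DESeq2 1.42.0 and the settings given in the closing section. The fits were tested on simulated data with known changes. Symbols were found for 491 of the 517 members. Exons of 56 of the 354 members that passed overlap another gene.

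Named are the 10 members with the highest and the 10 with the lowest log2 CPM ratio among those with no overlap between genotypes, at least 1 CPM on average and a pass of the filter. Also named are the 3 members on either side of asxl1, the 5 with the most CPM per kb, members of the longest runs (of which 1 is not reported here), the genes at the edges and the members called by letter. Ratios and plots used Python 3.11.15, pandas 2.3.3, NumPy 2.4.6 and matplotlib 3.10.9. No genome sequence was used here.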

Additional observations from a re-analysis of the deposited data

How the results depend on the processing

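Of all 63 genes named by rule or group, 17 turned sign under some alternative, with ratios between -0.27 and 0.13. None of the 20 highest and lowest ratios did, which their choice for no overlap between genotypes fixed for single letters and left-out libraries. The share of members past 0.5 was 15%, and it was 15.3% with a prior count of 0.5, 13.8% with 5, 11% with at least 10 counts in every library, 6.90% at a mean of at least 5 CPM, 12.7% for a window of 10 to 40 Mb and 15.6% for one of 20 to 35 Mb. Alternatives chosen after seeing the data gave 15.8% for members whose exons overlap no other gene and 14.0% without the F-box group, which left 7 called members. Without 1 library it lay between 16.1% and 16.7%. The share of neighbours of the same sign was 51.0%, 49.9% by library size, 51.6% with DESeq2 size factors, 50.1% with at least 10 counts, 51.9% at 5 CPM, 50.8% and 51.1% for the wider and the narrower window, and 53.3% to 55.0% without 1 library. The difference in median absolute ratio from the rest of the chromosome was 0.0475, 0.0405 by library size, 0.0323 with at least 10 counts, 0.0297 at 5 CPM, 0.0278 and 0.0534 for the wider and the narrower window, and 0.0357 to 0.0400 without 1 library.

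Over all genes the 12 calls became 53 with edgeR's exact test (0.265%), 27 with DESeq2 (0.135%), 19 without a filter beyond 1 count, 2 at an FDR below 0.01, and 9 to 80 without 1 library. The 8 members called became 21 with the exact test, 12 with DESeq2, 5 with at least 10 counts in every library, 2 at an FDR below 0.01, and 3 to 17 without 1 library, the lowest without asxl1+/+ library A and the higher counts without asxl1-/- library A (17) or B (14). Leaving out a library leaves 1 in its genotype, assumed to vary like the other genotype. The cause of these shifts was not tested.

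The labels do not say what libraries of a letter share, and with 2 pairs the pairing rests on the letters alone. The deviations of same-letter libraries correlated at 0.27 across genes, and the biological coefficient of variation was 8.81% without and 3.49% with the replicate block. With the replicate block 301 genes were called (1.51%), 60 of them members and 12 on the rest of chromosome 23, and with the genotype as a covariate 29 members (8.19%) were called by letter instead of 4, against 8.53% of all genes tested. In the A pair alone and the B pair alone the share past 0.5 was 16.9% and 16.7%, the share of neighbours of the same sign 50.4% in both, and the difference in medians 0.0234 and 0.0273.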
